A study of Mus musculus with 20 samples.

Results

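The cytosolic ribosomal protein genes encode the protein subunits of the ribosomes that translate cellular mRNA. They were taken as every probe set whose single gene symbol is Rpl or Rps followed by a digit, or Rplp0, Rplp1, Rplp2, Rpsa or Fau. S6 kinase genes, pseudogene and like-named symbols, and Rps19bp1, which encodes a protein that binds Rps19, were left out. The rule found 96 of 45101 probe sets, for 44 genes, 22 of the small and 22 of the large subunit. Of these, 87 probe sets of 43 genes reached the median of their array on at least 2 arrays and were tested. The 9 dim ones included the only probe set of Rps16. Symbols named a further 110 probe sets together with other genes, and 27 ribosomal protein genes, among them Rplp1, Rpl5, Rpl26 and Rpl35a, appeared only on such probe sets.

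The study recovered mouse RNA bound by iron regulatory protein 2 (IRP2) and measured it on 20 Affymetrix Mouse Genome 430 2.0 arrays. Total RNA of duodenum, liver and spleen came from 4 pooled C57BL6/J mice per tissue, which from weaning ate a diet below 10 mg/kg of iron for 21 days. RNA of bone marrow and brain came from 6 pooled mice per tissue, aged 8 to 10 weeks and on an iron-normal diet, and all pools mixed the sexes. In each of 2 replicas per tissue, 50 µg of RNA met recombinant His-tagged IRP2 made in E. coli and an anti-His antibody, and a parallel control held the antibody without IRP2. No source used here says that the replicas came from separate pools, so p-values measure the spread between reactions, which may be technical. Diet and age followed tissue and cannot be told apart from it.

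As background, IRP2 binds a hairpin called the iron-responsive element, whose loop reads CAGUGN, in mRNAs of iron uptake, storage and use. When bound near the start of an mRNA, it blocks translation. Binding in the tail of Tfrc mRNA, which encodes the transferrin receptor, protects that mRNA from decay. Ribosomal protein mRNAs are abundant in every cell. They begin with a C followed by an unbroken run of pyrimidines, the terminal oligopyrimidine tract, through which growth signals such as mTOR set their translation as a group. Loss of 1 copy of several of these genes causes Diamond-Blackfan anaemia, in which the marrow makes too few red cells.

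The starts of these genes are printed because both kinds of element can lie there. RefSeq on GRCm38.p6 gave 45 start windows for 39 of the 44 genes, each from 10 bases before to 20 bases from the annotated start, 5′ to 3′ on the gene's strand. Capitals mark the longest run of C and T. The first 4 hold the longest runs, of 20, 18, 17 and 16 bases. The other 3 belong to genes the results below turn on.
Rpl27a, chr7:109519185-109519214, plus strand: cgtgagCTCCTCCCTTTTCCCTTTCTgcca
Rpl35, chr2:39005112-39005141, minus strand: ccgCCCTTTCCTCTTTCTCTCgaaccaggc
Rpl7a, chr2:26910797-26910826, plus strand: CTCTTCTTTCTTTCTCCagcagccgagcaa
Fau, chr19:6057937-6057966, plus strand: gcccccaCTTCTTCCTCTTTCTTgactcca
Rps24, chr14:24490668-24490697, plus strand: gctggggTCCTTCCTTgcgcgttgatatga
Rplp0, chr5:115559457-115559486, plus strand: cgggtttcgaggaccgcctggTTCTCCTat
Rpl37a, chr1:72711250-72711279, plus strand: CTCgccggtctaaaaccgcgcatgcgcatt

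A C/T run of at least 8 bases stood in 17 of the 45 windows (37.8%), against 11.2% of 32851 windows of all genes. The median longest run was 7 bases, against 4. In the Rpl37a window the longest run was only 3 bases, beginning 10 bases before the annotated start. The letters CAGTGN within 50 bases after the start were present on the sense strand for Rpl27 and Rps24, which is 4.44% of windows against 7.08% of all. On the opposite strand they were present for Rpl22 alone (all windows, 6.58%). A match describes letters only, with no structure tested.

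Markers of each labelled tissue were highest on its own arrays, and duodenum also carried pancreas acinar markers. These averaged 12.32 to 12.57 (log2) on the 4 duodenum arrays over 5 measured genes, beside 12.01 to 12.88 for 4 markers of duodenal epithelium. Tfrc, the reference target, was higher with IRP2 in every pair of its probe set 1422966_a_at, by 2.05 to 4.10 (log2). Its mean over tissues was 3.30 (limma, adjusted p = 2.00e-07). The other tested Tfrc probe sets were also higher in every pair, with lower means of 2.31 (1422967_a_at) and 1.90 (1452661_at). Their lowest pair ratios were 0.22 (liver pair 1) and 0.51 (bone marrow pair 1).

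No ribosomal protein probe set was called higher or lower with IRP2 than in the controls in any tissue or on the mean over tissues (limma, Benjamini-Hochberg adjusted p under 0.05, 2 arrays per group). The share called higher among all 30153 tested probe sets was 0.365% on the mean, 0.073% for duodenum, 0.063% for spleen, 0.0597% for brain, 0.0332% for liver and 0.00995% for bone marrow. The share called lower was 0.00663% on the mean, 0.00332% for brain and 0.0% for the other 4 tissues. Calls were rare over the whole array, so a count of 0 lies near the background. Unadjusted p under 0.05 was reached by Rpl37a in spleen, brain and the mean, all higher, and by Rpl7 and Rps24 in bone marrow, both lower. Over all tested probe sets that p was reached on the higher side by 0.869% in spleen, 0.551% in brain and 1.93% on the mean, and on the lower side by 4.77% in bone marrow. With the replica number as a block, 1 probe set was called, that of Rpl37a on the mean, and 0 were called in single tissues. That fit called 0.282% of all tested probe sets higher for duodenum, 0.292% for spleen, 0.139% for brain, 0.206% for liver and 0.378% for bone marrow. It called 0.348% lower for bone marrow, 0.0133% for each of duodenum, spleen and liver, and 0.00332% for brain. Unadjusted p under 0.05 was reached there by 17 of 87 probe sets on the lower side in bone marrow, where 13.4% of all tested reached it. It was reached by 4 on the higher side in duodenum, where 4.35% of all did, and by 0 or 1 in every other tissue and direction.

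The fitted IRP2 minus control differences (log2) were small outside bone marrow. The median over the 87 probe sets was 0.075 in duodenum, against 0.04 over all tested probe sets. It was -0.08 in spleen (all, -0.02), -0.03 in brain (-0.02), -0.11 in liver (-0.04) and -0.29 in bone marrow (-0.04). On the mean over tissues the ribosomal protein median was -0.10 against -0.02 for all, and without bone marrow it was -0.045 against -0.01. On the mean over all 5 tissues 86 of the 87 probe sets lay within 0.3 of 0, as did 98.0% of all tested. For the same number, the 95% interval of the mean difference stayed within 1 log2 unit on both sides of 0. Within single tissues the standard errors were wider, with a median of 0.34, and the interval stayed inside those limits for 64 to 72 probe sets in duodenum, liver, spleen and brain, and for 39 in bone marrow. The small-subunit median on the mean was -0.11 and the large-subunit median -0.08. A test of whether the IRP2 difference varied between tissues called 0 ribosomal protein probe sets, while 0.00332% of all were called.

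Single genes, read from the brightest probe set of each, kept to this narrow band on the mean over tissues. The lowest were Rps7, a small-subunit protein, at -0.24 ± 0.16 (fitted SE), Rps3a1 at -0.18 ± 0.18 and Rpl12 at -0.17 ± 0.15. Next came Rpsa, the laminin receptor precursor that is also a protein of the 40S subunit, at -0.16 ± 0.19. The highest were Rpl14 at 0.08 ± 0.12, Rpl37 at 0.05 ± 0.21, Rpl39 at 0.04 ± 0.20 and Rplp0, a protein of the ribosomal stalk, at 0.00 ± 0.26. None of these 8 passed the test, with limma adjusted p of 1 in each after rounding.

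Within tissues the same genes changed places. In duodenum Rpl14 was highest (0.49) and Rpl41, the smallest ribosomal protein, was lowest (-0.25). In liver Rpl12 was lowest (-0.45) and Rpl14 highest (0.16). In spleen Rps7 was lowest (-0.24) and Rpl39 highest (0.23). In brain Rpl27a was lowest (-0.44) and Rplp0 highest (0.13), and none of these values passed the test.

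On the mean over tissues Rpl37a was the gene whose probe sets differed most. In bone marrow pair 1 those of Rps3 and Rps24 lay further apart, as given below. Rpl37a encodes a 60S protein and is read by 3 probe sets. On the dimmest, 1416218_x_at, control and IRP2 values (log2) were 5.03 and 5.94 in duodenum pair 1, 5.61 and 6.28 in duodenum pair 2, 5.62 and 6.64 in liver pair 1, and 5.77 and 6.15 in liver pair 2. They were 7.54 and 8.49, then 7.32 and 8.27, in the 2 spleen pairs. In brain they were 5.16 and 6.50, then 6.56 and 7.22. In bone marrow they were 6.82 and 6.43 in pair 1, and 6.15 and 6.61 in pair 2. The IRP2 array was therefore above its control in 9 of 10 pairs, bone marrow pair 1 being the exception. Both IRP2 arrays stood above both controls in duodenum, liver and spleen, and the groups overlapped in bone marrow and brain.

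The mean difference of this Rpl37a probe set was 0.69 ± 0.17 (fitted SE), with a limma adjusted p of 0.193 without the replica block and 0.00265 with it. The block fit called 1.07% of all tested probe sets higher on the mean and 0.146% lower. Without bone marrow the mean was 0.86, with limma adjusted p of 0.0969 and 0.00116. On that mean 0.348% and 0.985% of all tested probe sets were called higher. Leaving out single arrays gave 0.555 to 0.835 without the block. Only the highest of these, without brain control replica 2, passed the threshold (limma adjusted p = 0.00843). The other Rpl37a probe sets had mean differences of 0.18 (1416217_a_at) and -0.02 (1460543_x_at, the brightest). The letters _x_at mark a set whose probes can also match other transcripts, and 38 of the 96 probe sets (39.6%) carry them, against 5.42% of all. Of 18 genes with several tested probe sets, the other 17 had mean differences within 0.2 of each other, with a median spread of 0.08 over all 18.

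**Figure D1:**
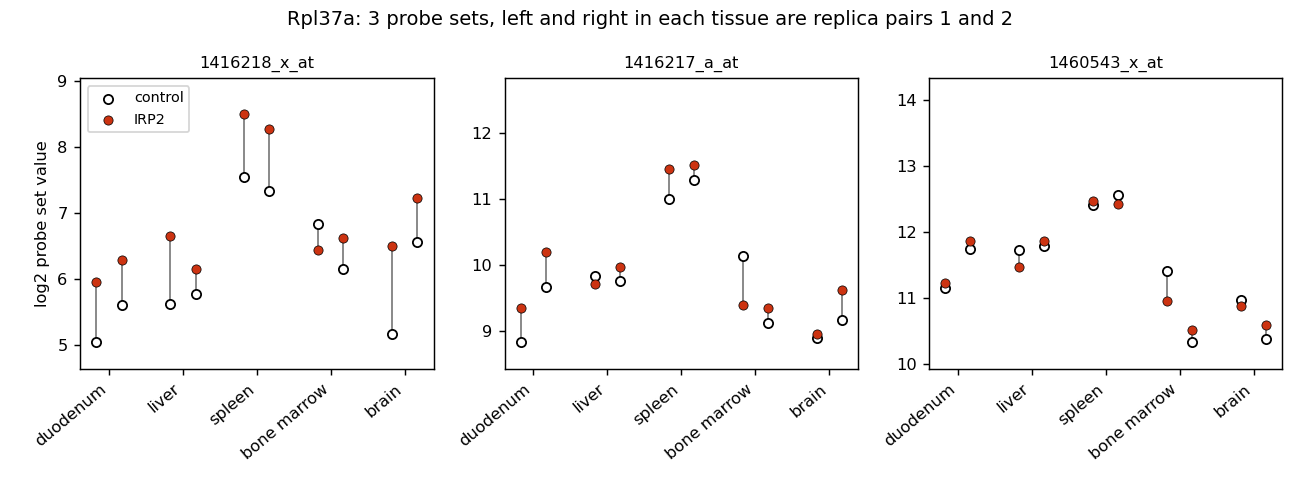
Values of the 3 Rpl37a probe sets (log2, vertical axis, each panel spanning the same length of scale) on the 20 arrays by tissue, with grey lines joining the control (open) and IRP2 (filled) arrays of a replica. On 1416218_x_at the IRP2 point lies above its control in 9 of 10 pairs, and on 1460543_x_at the points of a pair lie close together outside bone marrow pair 1.

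The 2 bone marrow pairs gave medians of opposite sign for this gene family. In pair 1 the median of the 87 IRP2 minus control ratios was -0.66 (log2), while that of all tested probe sets was -0.05. In pair 2 the median was 0.11, against 0.04 for all. In pair 1, 79 of 87 probe sets were below 0 and 9.2% were above it, against 45.8% of all tested above it. Of the 87, 60 (69.0%) were at least 0.5 below 0, against 24.3% of all tested. At least 0.5 above it were 2, against 10.4% of all. In pair 2, 71 (81.6%) were above 0, against 55.8% of all tested. None was beyond 0.5 in either direction, where 4.57% of all lay below and 5.51% above. Duodenum pair 1 also had 71 above 0, against 57.9% of all.

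The pair medians in the other tissues lay between -0.20 (liver pair 1) and 0.10 (duodenum pair 1). The member medians were 0.02 in duodenum pair 2, -0.03 in liver pair 2, -0.001 and -0.15 in spleen, and -0.07 and 0.001 in brain. In bone marrow pair 1 the median was -0.70 for the small and -0.65 for the large subunit. The 102 tested probe sets that share a symbol with other genes had a median of -0.71, then 0.13 in pair 2. No other pair moved the family this far.

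**Figure D2:**
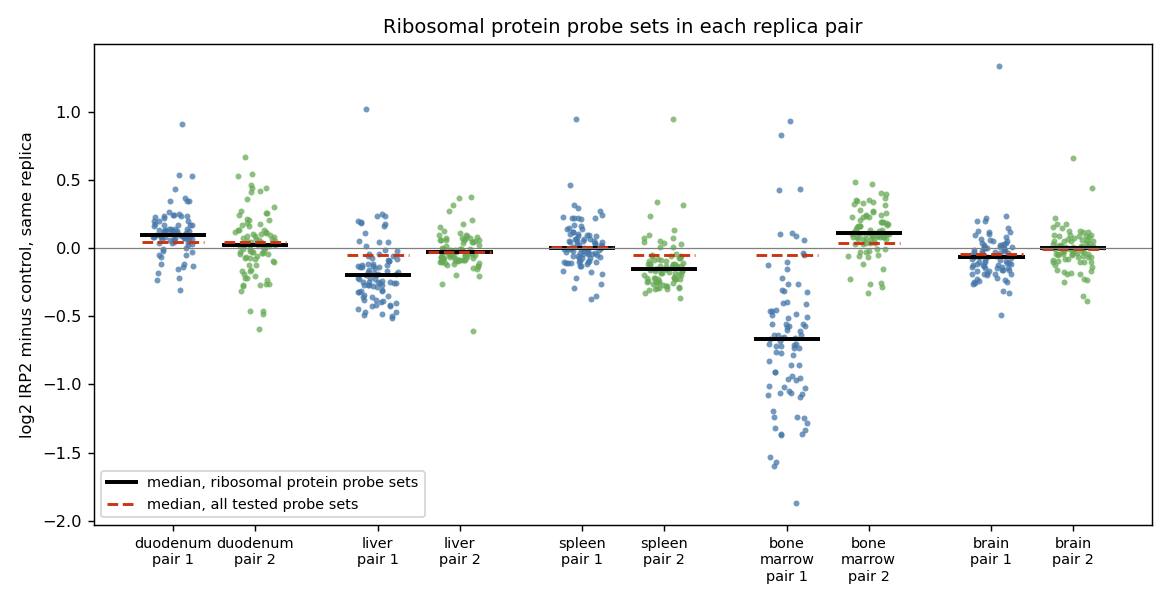
Log2 IRP2 minus control (vertical axis) for each of the 87 tested ribosomal protein probe sets (points) in the 10 replica pairs, with the median of these probe sets (black line) and of all 30153 tested probe sets (red dashed line). Bone marrow pair 1 lies low, with a median of -0.66, and pair 2 of the same tissue has a median of 0.11.

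The 3 genes with the lowest pair 1 ratios on their brightest probe sets are given by array, and were picked by that ratio. Rplp0 measured 10.98 on marrow control replica 1 and 9.48 on control replica 2, and 9.45 and 9.85 on the IRP2 arrays of replicas 1 and 2. Its control replica 1 thus stood alone above the other 3 arrays, giving ratios of -1.53 in pair 1 and 0.36 in pair 2. Rps3a1, a 40S protein, measured 12.23 and 10.92 on the controls and 10.67 and 11.09 on the IRP2 arrays, with ratios of -1.57 and 0.17. Rpl6, of the 60S subunit, measured 12.19 and 10.58 on the controls and 10.83 and 10.75 on the IRP2 arrays, with ratios of -1.36 and 0.17. In all 3 genes the array that differed was control replica 1.

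A list of 10 Diamond-Blackfan anaemia genes, which leaves out some genes known in that disease, had 6 on single-symbol probe sets, namely Rps19, Rpl11, Rps26, Rps10, Rps24 and Rps7. Rps19, the gene most often mutated in that disease, measured 11.18 and 9.82 on the controls and 10.32 and 9.90 on the IRP2 arrays. Rps7 measured 12.46 and 10.92, then 11.13 and 11.02. Again 1 control lay above the other 3 arrays. Over their 17 probe sets, 6 of them of Rps10 and 6 of Rps24, the median ratio was -0.91 in pair 1 and 0.11 in pair 2. In pair 1, 14 of 17 were at least 0.5 below 0, as were 60 of the 87 in the family (69.0%) and 24.3% of all tested. None was called in bone marrow.

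Rps24 had the lowest single ratio in pair 1, -1.87 on 1455195_at, which was also below 0 in pair 2 (-0.33). Its values were 7.77 and 6.90 on the controls and 5.90 and 6.57 on the IRP2 arrays, so the groups did not overlap there. The fitted difference was -1.10 (limma adjusted p = 0.574). Of the other 5 Rps24 probe sets, 4 had ratios of -1.09 to -1.36 in pair 1 and above 0 in pair 2, and 1436500_at gave 0.11 and -0.05.

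A few probe sets ran against the rest in pair 1. Rpl37, whose zinc-finger protein sits in the 60S subunit, measured 8.69 and 9.97 on the controls and 9.63 and 9.71 on the IRP2 arrays, with ratios of 0.93 and -0.26. Its control replica 1 was the lowest of the 4. The dim Rps3 probe set 1447563_at gave 0.83 in pair 1 and 0.11 in pair 2, whereas the brightest Rps3 probe set gave -0.91 and 0.24. The 6 others above 0 in pair 1 were probe sets of Rpl14, Rpl35, Rpl39, Rpl41 (2 of them) and Rps24. Among the 41 probe sets with a mean level of 11 or more, none was above 0 in pair 1 and the median was -0.72. Among the 13 with a mean under 8, 6 were above 0 and the median was -0.05.

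Marrow control replica 1 exceeded the other 3 marrow arrays for 78 of the 87 ribosomal protein probe sets, against 44.3% of all tested. All 78 were also below each of the 4 spleen arrays, against 27.7% of all. The median excess of that array over the mean of the other 3 was 0.97, and 0.135 over all tested probe sets. Bright probe sets in general were higher there too. The upper decile of an array's values was 8.735 on it, 8.125 to 8.284 on the other 3 and 9.091 to 9.206 on the spleen arrays. Of the 87, 68 lay above that decile on control replica 1. No background of like brightness was computed for this excess, the pair 1 ratios or the difference from spleen. The rank correlation of control replica 1 with the spleen arrays over all tested probe sets averaged 0.908, while the other 3 marrow arrays averaged 0.824 to 0.825. These are descriptions across probe sets, which are not independent.

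Cell type markers moved on this array too. Markers of marrow myeloid cells (7 of 7 measured) averaged 11.84 on control replica 1, and 11.06, 10.45 and 10.35 on IRP2 replica 1, IRP2 replica 2 and control replica 2. Erythroid markers (4 of 6 measured) averaged 9.45 there and 8.67 to 8.93 on the other 3. B and T cell markers (5 of 7 measured) averaged 7.59 there, 7.12 to 7.47 on the other 3, and 9.41 to 9.61 on the spleen arrays. Their part in the ribosomal protein result was not tested.

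Without marrow control replica 1, the median fitted difference in bone marrow was 0.24 and 0 ribosomal protein probe sets were called. Without control replica 2 the median was -0.87 and 8 probe sets were called lower, where 5.57% of all tested were. Those 8 were 2 of Rpl7 and 1 each of Rpl4, Rpl41, Rps24, Rps3, Rps4x and Rps7, at -1.09 to -1.53. The direction of the family in bone marrow therefore followed which control array was used. Without IRP2 replica 1 the median was -0.41, and without IRP2 replica 2 it was -0.12.

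**Figure D3:**
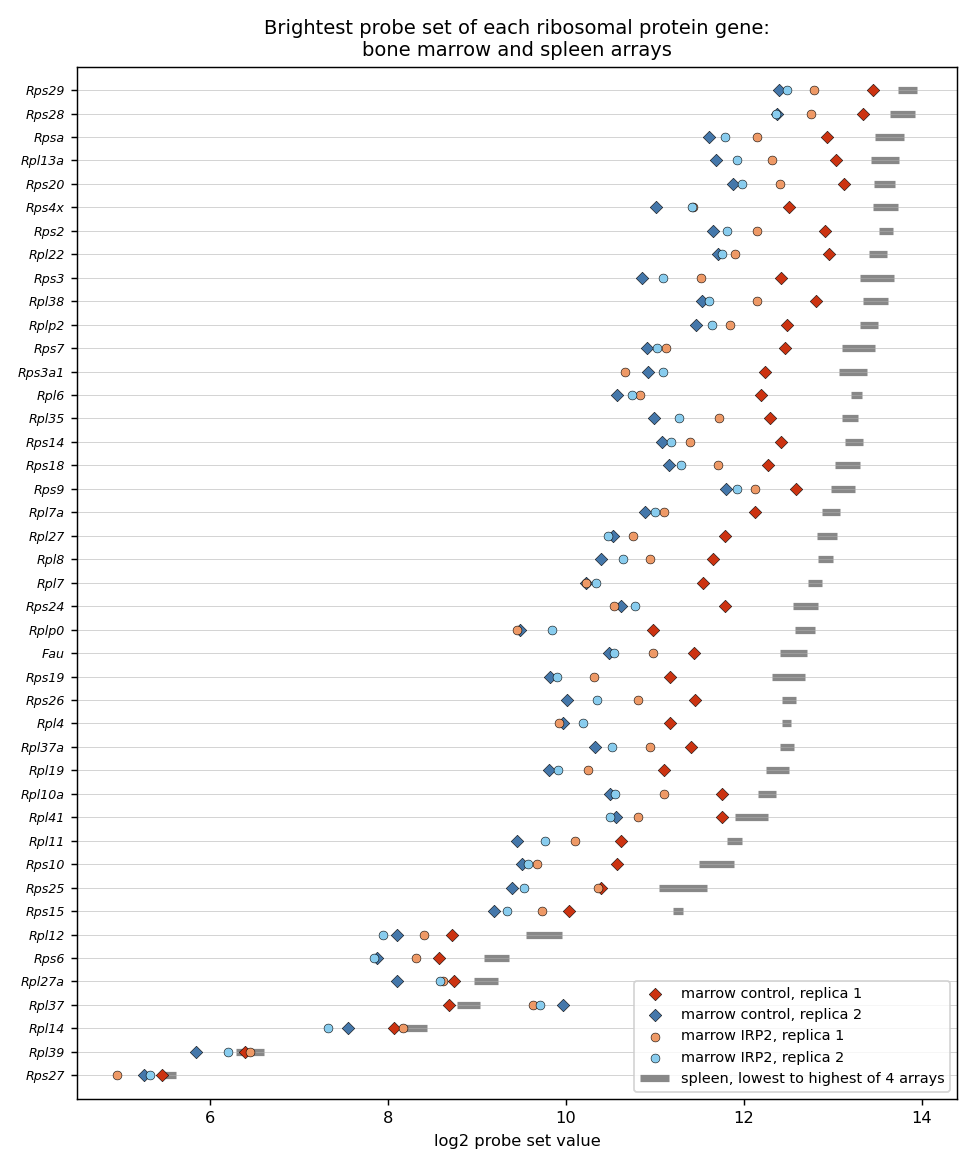
Log2 values (horizontal axis) of the brightest probe set of each of 43 ribosomal protein genes (rows) on the 4 bone marrow arrays (diamonds for controls, circles for IRP2), with a grey bar from the lowest to the highest of the 4 spleen arrays. The red diamonds of marrow control replica 1 lie between the other marrow arrays and spleen for most genes, and Rpl37 runs the other way.

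Groups that did not overlap were counted as well. Both IRP2 arrays were above both controls for 3 ribosomal protein probe sets in duodenum (14.4% of all tested), 7 in spleen (15.6%), 1 in brain (4.21%), 7 in liver (13.9%) and 1 in bone marrow (14.5%). Those in duodenum were of Rpl14, Rpl37a and Rps24, that in marrow was of Rps3 and that in brain of Rps24. Both IRP2 arrays were below both controls for 3 in duodenum (8.98%), 27 in spleen (20.2%), 3 in brain (6.44%), 28 in liver (20.7%) and 3 in bone marrow (12.1%). The 3 in duodenum were of Rpl35, Rpl41 and Rps27, those in marrow of Rpl41, Rps10 and Rps24, and those in brain of Rpl35, Rps24 and Rps6. In liver and spleen the lower side held 32.2% and 31.0% of the family, above the share of all probe sets, with medians of -0.11 and -0.08. No probe set there passed the test.

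Levels between tissues were read from the control reactions, in which RNA was recovered without IRP2, so they are not total tissue RNA. In bulk tissue, fewer cells of a type and less RNA per cell cannot be told apart. Arrays fell in 2 ranges of array median, and the contrasts given first stay within 1 range. Marrow and spleen also differed in the diet and age of the mice, and no source used here names separate pools for the replicas. Ribosomal protein values were lower in bone marrow than in spleen. Of 87 probe sets 76 were called lower and 0 higher (limma), where 26.7% of all tested were lower and 7.93% higher. The median difference was -1.51, which is 2.85-fold lower, against -0.15 over all tested probe sets.

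Rps19 measured 12.69 and 12.66 on the spleen controls and 11.18 and 9.82 on the marrow controls. The difference was -2.18 (limma adjusted p = 0.000677). Rplp0, at 12.58 and 12.68 in spleen and 10.98 and 9.48 in marrow, differed most, by -2.40 (limma adjusted p = 0.00554). Rpl19 (-1.98) and Rps3 (-1.98) followed, with limma adjusted p of 0.000512 and 0.00122. In each of these genes the 2 marrow arrays lay below both spleen arrays. Their controls had an SD of 0.92 to 1.11 in marrow and 0.02 to 0.10 in spleen. The fit pools the spread of a probe set over all groups, so it averages the wide marrow spread with narrower ones. These p-values, and the calls between marrow and spleen, can therefore understate the uncertainty.

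The stalk protein gene Rplp2 differed by -1.50, Rpsa by -1.51 and Fau, which encodes a ubiquitin-like protein fused to the 40S protein S30, by -1.70. These passed the test too, with limma adjusted p of 0.00549, 0.014 and 0.0118. The 11 probe sets not called included the brightest of Rpl37 (0.40), Rps27 (-0.13), Rpl39 (-0.17), Rpl14 (-0.52) and Rpl27a (-0.57). Of the 17 probe sets of the Diamond-Blackfan anaemia list 15 were lower in marrow and 0 higher. In the whole family 76 of 87 were lower, and of all tested 26.7% were.

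This count and the size of the difference depended on control arrays and scaling. Without marrow control replica 2, which leaves control replica 1 alone, the median difference was -0.95, against -0.05 over all tested probe sets. Without control replica 1 it was -2.04, against -0.26. After quantile normalization of all arrays together the count was 29, and the median difference was -0.54 against 0.03 over all tested probe sets. With IRP2 arrays in place of controls the count was 76. No share of all tested probe sets is given for these settings, so these counts have no background beside them.

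Spleen had the highest control level of the 5 tissues for 39 of the 43 genes, against 25.0% of all tested probe sets, and for 38 genes on the IRP2 arrays. The exceptions on controls were Rpl27a, Rpl37, Rpl39 and Rps27, all highest in liver. The median control level over genes was 12.8 in spleen, 11.76 in liver, 11.52 in duodenum, 11.16 in bone marrow and 11.1 in brain. The lowest tissue was bone marrow for 20 genes and brain for 17, an order that scaling changes. Between liver and duodenum 0 probe sets were called in either direction (limma), where 8.39% of all were higher in liver and 9.11% lower, and the median difference was -0.05. That median was -0.325 without duodenum control replica 1 and 0.216 without duodenum control replica 2.

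**Figure D4:**
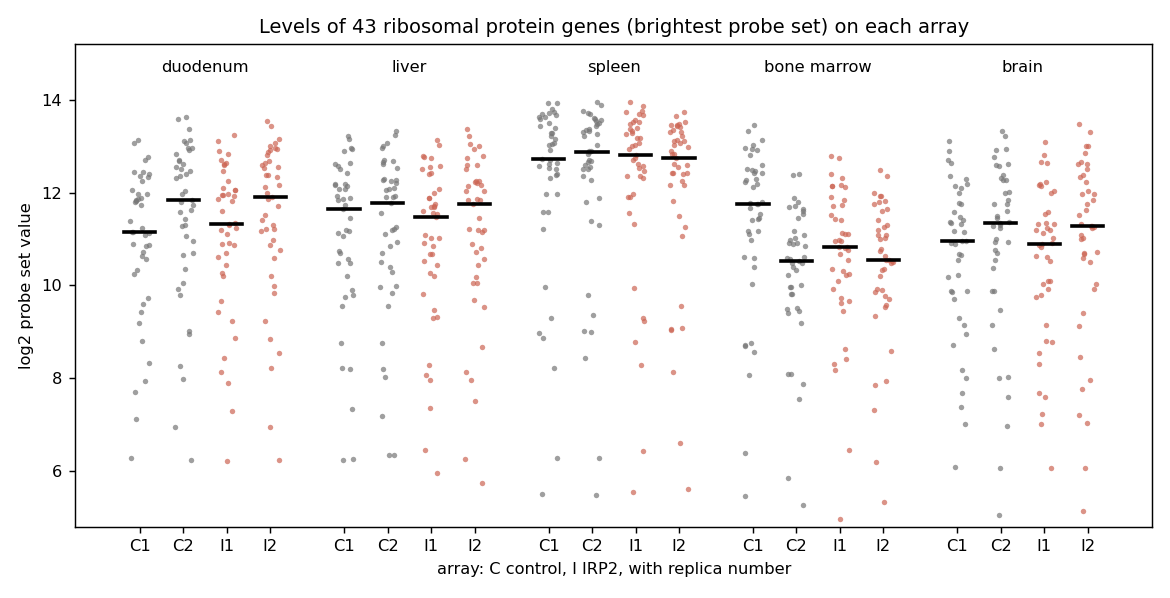
Log2 values (vertical axis) of the brightest probe set of 43 ribosomal protein genes (points) on each of the 20 arrays, with the median as a black bar (C for control, I for IRP2, with the replica number). Spleen lies highest on all 4 arrays, and control replica 1 of bone marrow lies above the other 3 marrow arrays.

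The family also shifted between replicas of the same reaction. Replica 2 exceeded replica 1 by a median of 0.57 in the duodenum controls and 0.40 in the duodenum IRP2 arrays, against 0.05 and 0.08 for all tested probe sets. In brain these medians were 0.33 and 0.41, where all tested probe sets gave -0.11 and -0.08, and the brain replicas fell in different ranges of array median (5.66 to 5.67 in replica 1, 5.41 in replica 2). In the marrow controls the median was -1.11, against -0.21 for all. There 82 of 87 were below 0 and 5 above, while 36.9% of all tested were above. The shifts in duodenum and brain exceeded every IRP2 median of the family outside bone marrow.

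Groups of genes related to the ribosome were described by the same measures. Other mRNAs with a terminal oligopyrimidine tract, such as translation elongation factors, had 32 tested probe sets of 14 genes. Their marrow medians were -0.69 in pair 1 and 0.14 in pair 2, and 23 of 32 were lower in marrow than in spleen, with 1 higher. The mitochondrial ribosomal proteins, which serve the separate ribosome of that organelle, gave -0.42 and 0.01 over 134 probe sets, and 65 were lower in marrow and 1 higher. The ribosome biogenesis factors gave -0.41 and 0.125 over 35 probe sets, and 19 were lower and 1 higher. Ribosomal protein like genes gave -0.58 and 0.09 over 8 probe sets, and 6 were lower and 0 higher. Of all tested probe sets 26.7% were lower in marrow and 7.93% higher. All these medians share the marrow control arrays with those of the ribosomal proteins.

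On the mean over tissues 1 probe set of these lists was called with IRP2, on the higher side. Of all tested probe sets 0.365% were called higher there, so a count of 1 lies near the background. The called probe set was that of Eef1b2 (1448252_a_at), a subunit of the exchange factor that recharges elongation factor 1A with GTP. Control and IRP2 values were 12.19 and 13.09, then 12.63 and 13.27, in duodenum, and 12.39 and 13.35, then 12.41 and 13.36, in liver. In spleen they were 12.62 and 13.17, then 12.69 and 13.10, and in brain 11.92 and 12.92, then 11.32 and 12.74. In bone marrow they were 11.93 and 11.95 in pair 1, and 10.88 and 11.95 in pair 2.

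Eef1b2 was higher with IRP2 in 10 of 10 pairs, with a mean difference of 0.79 ± 0.13 (fitted SE; limma adjusted p = 0.00688). In marrow pair 1, where the ribosomal protein median was -0.66, its ratio was 0.02. Eef1a1, the elongation factor that Eef1b2 serves, had ratios of both signs, higher in 6 of 10 pairs, and a mean of -0.13 ± 0.20 (limma adjusted p = 1.00).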

How the data were processed

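Arrays held RNA recovered with IRP2 or in control reactions, 10 each. The authors deposited log2 values per probe set, made with RMA, or MAS5 with quantile normalization, per the submitters' processing notes. The sources used here do not say which. Values ran from 1.77 to 15.0. Array medians fell in 2 ranges, so arrays were compared within tissues first. The brain replicas lie in different ranges, which enters the spread of the fit without the block.

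Of 45101 probe sets, 64 controls were left out and 30153 (66.9%) reached their array's median on at least 2 arrays. In R 4.3.3, limma 3.58.1 fitted 1 mean to each of the 10 groups (10 residual degrees of freedom, prior 5.34) and no replica block. Benjamini-Hochberg adjustment ran over all tested probe sets, with a threshold of 0.05. The fit was run on simulated data with a common spread for all probe sets and tissues. The real arrays differ from that, so the run does not measure the accuracy of the fit here. Same-numbered arrays deviated together (correlations 0.923 in brain, 0.676 in duodenum, 0.565 for liver, 0.385 for spleen and 0.251 for bone marrow). The numbers were therefore read as pairs on the basis of the values, not the labels. A second fit used them as a block.

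Named genes were, for the brightest probe set of each gene, the highest and lowest 4 in each comparison, the called ones, the stalk, fusion and Diamond-Blackfan genes, and those whose probe sets differed most. Members and lists were chosen with earlier results of these data known. Symbols came from the platform annotation, and all 96 matched RefSeq by gene ID. Arrays give no depth, and their number limits the precision.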

Additional observations from a re-analysis of the deposited data

Results flagged for a closer look

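The median ribosomal protein difference had the same sign in both pairs of duodenum and the opposite sign in both pairs of liver and of spleen. It was 0.075 (log2) in duodenum, with pairs of 0.098 and 0.022, where all tested probe sets gave 0.042 and 0.044. It was -0.11 in liver, with pairs of -0.199 and -0.027 (all, -0.054 and -0.028), and -0.08 in spleen, with pairs of -0.001 and -0.153 (all, 0.006 and -0.052). The duodenum sign turned under quantile normalization, with a median of -0.003, and for the brightest probe sets in duodenum pair 2 (-0.00044). The difference between the tissue medians was not tested. The test of single probe sets for a difference between tissues called 0 of 87.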

How the results depend on the processing

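Leaving out single arrays moved the family's median (log2) over -0.867 to 0.24 in bone marrow, -0.205 to 0.19 in brain, -0.188 to 0.348 in duodenum, -0.232 to -0.001 in liver, -0.145 to -0.017 in spleen and -0.209 to 0.003 on the mean. Calls on the mean ranged from 0 to 1 higher, and calls in bone marrow from 0 to 8 lower. The count lower in marrow than in spleen ranged from 23 to 79, with 0 to 1 higher, and in liver against duodenum the counts were 0 to 1 higher and 0 to 2 lower. The median level difference ranged from -2.038 to -0.951 in marrow against spleen and from -0.325 to 0.216 in liver against duodenum. Counts and shares here and below are given without the share of all tested probe sets under the same setting. They have no background beside them.

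The replicate block, which treats same-numbered arrays as a pair, gave 1 call higher on the mean, Rpl37a at 0.695 (limma adjusted p = 0.00265), and the value without bone marrow, an alternative chosen after seeing the data, was 0.859. It changed no other call with IRP2 in the family. For levels the block gave 2 higher in marrow than spleen, and 1 higher and 6 lower in liver against duodenum. IRP2 arrays in place of controls gave 1 higher in marrow and 5 lower in liver, with a liver median of -0.184, and no filter on dim probe sets gave 1 higher in marrow. Centring arrays gave 1 lower in liver, and leaving out the _x_at and _s_at probe sets a liver median of -0.087.

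Quantile normalization of all arrays gave medians of -0.003 in duodenum, -0.031 in duodenum pair 1 and -0.027 in spleen pair 2. It gave 29 probe sets lower in marrow than spleen with a median of -0.54, and 1 higher and 2 lower in liver against duodenum. The share with both IRP2 arrays above both controls became 11.5% in duodenum, 14.9% in spleen, 0.0% in brain, 18.4% in liver and 3.45% in bone marrow, and the share below became 13.8% in duodenum and 20.7% in bone marrow. Centring gave 0.0% above in bone marrow, and 0.0% above and 0.0% below in brain. The brightest probe sets gave 0.0% above and 0.0% below in bone marrow, and 2.33% above in brain and 4.65% in liver. No share of all tested probe sets is given for these settings, so these shares are not read as a result about the family. The cause of these moves was not tested. Besides the single arrays left out, 254 values were recomputed, and 221 stayed on the same side of the threshold, within the replica spread of a median or within 1.5 times a count or share.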
